A study of Homo sapiens with 12 samples.

Results

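The genes described here are a mitotic gene set of 45 human genes that are known targets or components of the DREAM complex, read on arrays of HEK293T cells in which UBE4B, LSD1 or both were knocked down. Membership was set by gene name, with earlier results of these data known, and not by a threshold on the values of these arrays. A member was measured by the brightest transcript cluster annotated with exactly 1 gene symbol, which gave 44 of the 45 members among 18417 genes measured in this way. CENPA, the histone variant of centromeres, was represented only by a cluster that lists several symbols and was not analysed here. The mean signals of the 44 members lay between 8.55 and 11.74 on the log2 scale, and 63.6% of all genes were dimmer than the dimmest of them.

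Expression was read on Affymetrix Human Gene 1.0 ST arrays, designed with probes over the length of a transcript, in 4 groups of 3 arrays. The labels name a whole-transcript labelling kit and the study's supplement a kit that labels from the 3′ end, so how much of each transcript was labelled is not settled. Cells were transfected with plasmids encoding shRNAs against UBE4B and LSD1 together (shUBE4B+shLSD1, the double knockdown), shRNAs against UBE4B (shUBE4B), shRNAs against LSD1 (shLSD1) or a nontargeting shRNA (shCTRL, the control), and were lysed at 78 h. UBE4B is a ubiquitin chain elongation factor and ligase, and LSD1, encoded by KDM1A, is a lysine demethylase that acts on histones and on other proteins. The comparison addresses how the transcriptome responds when either enzyme or both are depleted, and in this set the response of genes known to be repressed through p21. HEK293T cells derive from human embryonic kidney and carry the SV40 large T antigen, which binds the retinoblastoma family proteins RB1, RBL1 and RBL2, so the pathway to DREAM is altered in all 4 groups. The source field of the labels gives HEK293, and the cell line field gives HEK293T. According to the methods all groups also carried a misfolding mutant of SOD1, which the labels do not name. The arrays of a group are labelled biological replicates, and where these were not separate cultures the p values measure technical spread only. Knockdown was transient and in a whole dish of cells, so fewer cells in mitosis and less of a transcript per cell cannot be told apart.

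DREAM is a repressor assembled in quiescent and arrested cells from the MuvB core (LIN9, LIN37, LIN52, LIN54 and RBBP4), the pocket protein RBL2 or RBL1, and E2F4 or E2F5 with a DP partner. It holds cell cycle genes off. When the CDK inhibitor p21, encoded by CDKN1A, is induced, pocket proteins stay underphosphorylated and DREAM keeps its targets repressed, whereas in cycling cells the MuvB core leaves the pocket protein and joins B-MYB (MYBL2) and then FOXM1 to activate the late cell cycle genes. LIN54 contacts DNA at the cell cycle genes homology region, CHR, and the E2F subunit contacts E2F sites. A CCAAT box bound by NF-Y often lies upstream of a CHR.

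The promoters of the members were read from RefSeq windows of 300 bases, with 250 before and 50 after each annotated gene start (GRCh38.p14), to show which of these letters they carry. Windows were found for 39 of the 44 members, and AURKA, TTK, BIRC5, TPX2 and FOXM1 were not matched. The CHR letters TTTGAA or TTCGAA, on either strand, were present in 28 of the 39 genes (71.8%), against 19.5% of the 27305 genes with a window. The CCAAT letters, on either strand, were in 71.8% of the members and 39.7% of all genes, and the E2F letters TTTGGCGC or TTTCGCGC in 10.3% of the members and 1.4% of all genes. Of the other cell cycle lists, 72.7% of 55 further G2 and M phase genes and 8.51% of 47 G1/S genes had the CHR letters. The CCAAT letters were in 70.9% and 61.7% of these lists, and the E2F letters in 3.64% and 34%. Among the 14239 genes with a window that were measured on the arrays, the shares were 17.4% for CHR, 42.2% for CCAAT and 1.97% for E2F letters. These are matches of letters in a window and not tests of binding. TTCGAA reads the same on both strands and was counted once, and genes with several starts were counted once if any of their windows had a match.

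Stretches from 70 bases before to 40 after the start are shown for 6 members that are called in the comparisons below and have a window, chosen with those results known as examples of each kind of match, with CHR and E2F letters in capitals. They show paired CHR letters in HMMR, NDC80 and ANLN, and E2F letters but no CHR letters in RBL1. RBL2 has a second annotated start, whose window holds no CHR letters and is not shown.
HMMR, chr5:163460562-163460671, + strand: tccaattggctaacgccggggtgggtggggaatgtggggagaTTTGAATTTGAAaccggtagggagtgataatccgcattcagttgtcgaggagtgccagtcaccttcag
NUF2, chr1:163321884-163321993, + strand: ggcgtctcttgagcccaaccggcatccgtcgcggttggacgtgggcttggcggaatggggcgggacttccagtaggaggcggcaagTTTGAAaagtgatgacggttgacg
NDC80, chr18:2571487-2571596, + strand: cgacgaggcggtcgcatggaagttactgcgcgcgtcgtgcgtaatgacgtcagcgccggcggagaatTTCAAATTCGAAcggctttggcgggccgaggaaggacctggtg
ANLN, chr7:36389792-36389901, + strand: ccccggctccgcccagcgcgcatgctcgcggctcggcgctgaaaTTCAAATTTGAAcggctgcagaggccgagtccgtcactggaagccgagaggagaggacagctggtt
RBL1, chr20:37095958-37096067, - strand: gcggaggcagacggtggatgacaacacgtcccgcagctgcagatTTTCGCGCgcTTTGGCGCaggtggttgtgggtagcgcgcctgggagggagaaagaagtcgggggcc
RBL2, chr16:53434401-53434510, + strand: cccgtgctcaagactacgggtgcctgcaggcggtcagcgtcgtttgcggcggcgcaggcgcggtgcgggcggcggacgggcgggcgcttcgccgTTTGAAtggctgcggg

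**Figure D1:**
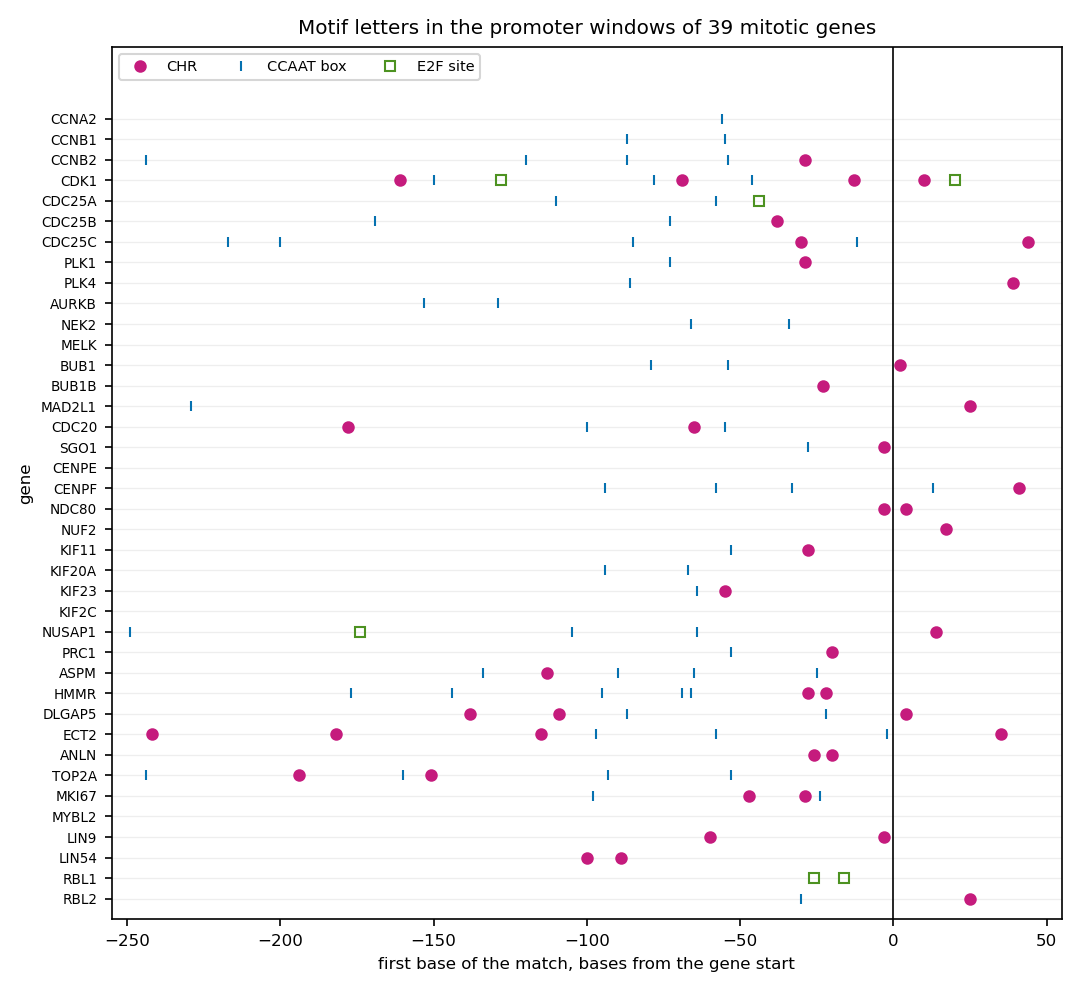
First base of each match to the CHR, CCAAT box and E2F letters in the promoter windows of 39 mitotic genes, in bases from the gene start, for all windows of a gene. CHR letters were found in 28 of the 39 genes, and CCAAT letters in the same number of genes.

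The knockdowns were seen on the arrays. UBE4B signal was 8.75, 9.11 and 8.94 in the double knockdown, 8.89, 9.06 and 8.89 in the UBE4B knockdown, 10.38, 10.44 and 10.45 with LSD1 knockdown and 10.39, 10.38 and 10.28 in the control. KDM1A signal was 9.58, 9.89 and 9.87 in the double knockdown, 10.94, 10.98 and 10.93 in the UBE4B knockdown, 9.46, 9.84 and 9.61 with LSD1 knockdown and 10.91, 10.83 and 10.96 in the control. Each targeted gene was therefore below all other arrays where its shRNA was present. Markers known from HEK293T cultures were measured between 6.92 and 11.35, with vimentin and N-cadherin (CDH2) the brightest, while PTPRC, CD3E, CD14 and HBB of blood cells stayed between 4.33 and 6.80. Of 8 markers of colon epithelium and 6 of fibroblasts, EPCAM was the gene with a called change against the control in the double and UBE4B knockdowns, by −0.58 and −0.55, at signals between 5.88 and 6.94.

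Replicate 2 of the control stood apart from the other arrays in the mitotic genes. Its signal was below the mean of the other control arrays in 38 of 44 members, with a median difference of −0.25 and a range of −0.78 (HMMR) to 0.20 (BIRC5). For all 18417 genes the median of the same difference was 0.01, and for the 6464 genes within the signal range of the members it was −0.07. This array held the lowest of the 12 values for 28 of 44 members, against 17.2% of all genes. The remaining arrays differed from the mean of their 2 partners by a median over the members of −0.05 to 0.12. The further G2 and M phase genes (−0.19) and the G1/S genes (−0.14) were also lower on replicate 2 of the control, and its weight in a fit with array weights was 0.277, against 0.732 to 1.87 for the others. Counts of called members against the control are therefore given with all 12 arrays and without this array. Counts by overlap of arrays are given with all 12 arrays only. For a named gene the values without it are given where they change the call, except where marked as all 12 arrays only. What set it apart was not tested.

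**Figure D2:**
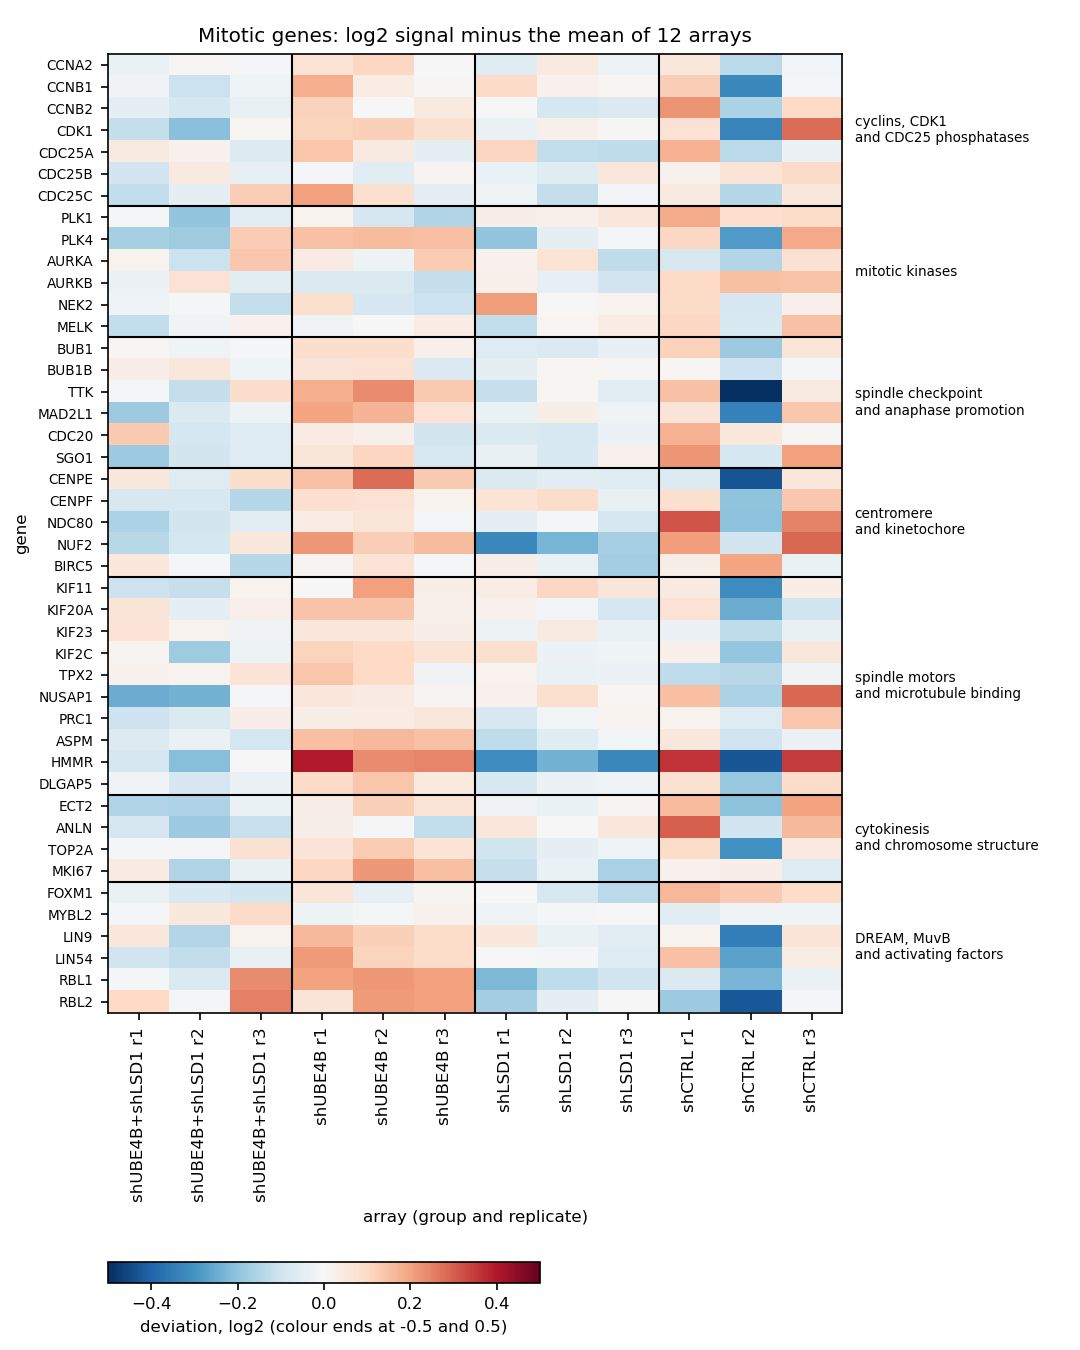
Log2 signal of each of the 44 mitotic genes on each of the 12 arrays, minus the mean of that gene over the 12 arrays (red, above; blue, below), with genes ordered by role and arrays by group. Replicate 2 of shCTRL is blue in most rows, the 3 shUBE4B arrays are mostly red and the shLSD1 arrays are mostly pale blue.

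With all 12 arrays, few mitotic genes passed the test in any comparison. The pattern that did not rest on the control was that most of the genes had higher means with UBE4B knockdown alone than with LSD1 knockdown alone or with both. In the UBE4B knockdown against the LSD1 knockdown, 38 of 44 members had a positive log2 change (45% of all genes), the median was 0.08 (−0.02 over all genes), and 4 members were called higher and 0 lower, where 5.46% of all genes were called in either direction. The 4 were NUF2, RBL1, MKI67 and ASPM, and the count was 0 without any 1 of the 3 UBE4B or 3 LSD1 knockdown arrays, 2 without replicate 3 of the double knockdown, and 7 without replicate 2 of the control, at a background of 9.02%. In the double against the UBE4B knockdown 40 of 44 members were below 0 with a median of −0.10 (0.01 over all genes), and 0 members were called at a background of 0.147%. In the double against the LSD1 knockdown, 24 of 44 members were above 0, the median was 0.00 and 0 members were called, where 2.79% of all genes were. Calls are limma adjusted p values under 0.05, adjusted over all 18417 genes. These comparisons share arrays, and the members share each array's deviation, so the counts are not independent of each other.

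Counted by overlap of the arrays, 20 of 44 members (45.5%) had all 3 double knockdown arrays below all 3 UBE4B knockdown arrays, against 11.9% of all genes, and AURKB alone had the opposite order. Likewise 20 of 44 members (45.5%) had all 3 UBE4B knockdown arrays above all 3 LSD1 knockdown arrays, against 15.6% of all genes, and PLK1 alone had the opposite order. Against the control, counts in both directions were closer to those of all genes, but they use all 3 control arrays. Replicate 2 of the control held the lowest of the 12 values for 28 of 44 members. For those members the knockdown arrays could not all lie below all control arrays, and overlap without that array was not counted here. All 3 double knockdown arrays were below all 3 control arrays for 3 of 44 members (6.82%, against 11.3% of all genes) and above them for 4 (9.09%, against 10.6%). All 3 UBE4B knockdown arrays were below all 3 control arrays for 4 members (9.09%, against 16.1%) and above them for 8 (18.2%, against 14.2%), which were CENPE, KIF23, KIF2C, ASPM, MKI67, LIN9, RBL1 and RBL2. For the LSD1 knockdown 5 members were below (11.4%, against 8.11%) and 1, MYBL2, above (2.27%, against 8.53%).

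Against the control, the calls depended on replicate 2 of the control. In the double knockdown with all 12 arrays, 0 of 44 members were called at a background of 7.56%, 29 of 44 were below 0 and the median log2 change was −0.05. Without that array, 8 members were called lower and 0 higher at a background of 8.41%, 35 of 44 were below 0 and the median was −0.11. That array was low in most of these same members, so leaving it out raises their control means. Lower calls without it are therefore not independent of the choice to leave it out. Without replicate 3 of the control instead, 1 member was called, and the share of all genes called there is not given. The 8 were HMMR, NDC80, NUSAP1, ANLN, SGO1, NUF2, ECT2 and CDK1. In the LSD1 knockdown 0 members were called with all arrays (background 0.820%, 25 of 44 below 0, median −0.04), and 3 were called lower without the array (background 1.08%, 38 of 44 below 0, median −0.10), namely HMMR, NUF2 and NDC80. In the UBE4B knockdown 2 members were called higher (RBL1 and RBL2) and 1 lower (AURKB) with all arrays, where 10.1% of all genes were called, 31 of 44 were above 0 and the median was 0.09. That count was 0 without any 1 of the 3 UBE4B knockdown arrays. Without the array 2 members were called lower (ANLN and NDC80) and 0 higher at a background of 6.66%, 24 of 44 were above 0 and the median was 0.01.

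**Figure D3:**
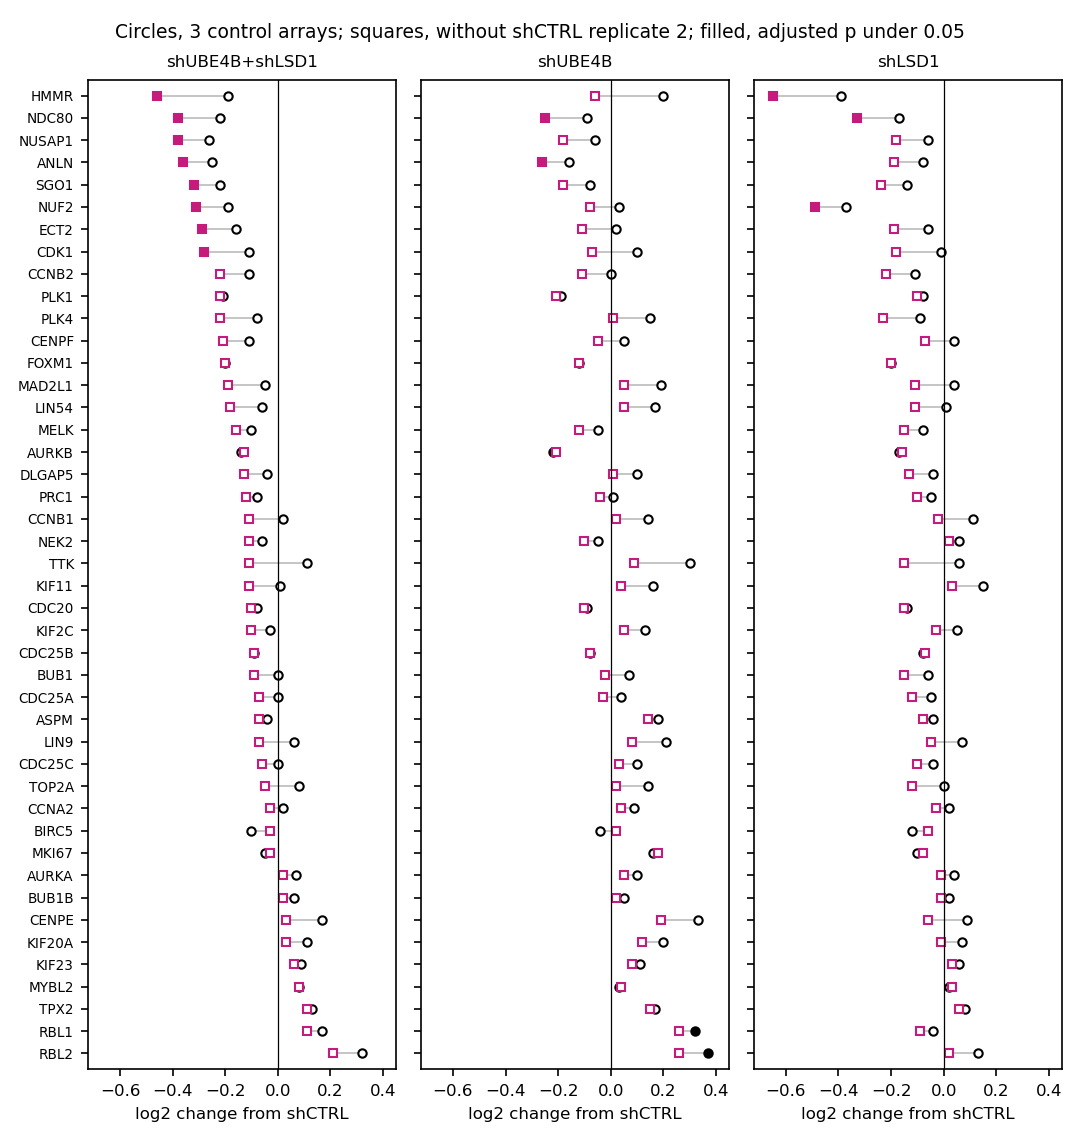
Log2 change of each mitotic gene from the control in the double, UBE4B and LSD1 knockdowns (left to right), with 3 control arrays (circles) and without replicate 2 of the control (squares); filled symbols passed an adjusted p of 0.05. Leaving out that array moved most genes to the left, with 8, 2 and 3 genes called lower.

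The effect of each shRNA was also averaged over the presence and absence of the other. Over both backgrounds the LSD1 shRNA lowered NUF2 by −0.30 ± 0.06 (SE, adjusted p = 0.0399), the 1 member called where 1.48% of all genes were. Without replicate 2 of the control, 6 members were called lower (HMMR, NUF2, NDC80, SGO1, ECT2 and LIN54) at a background of 4.00%. The UBE4B shRNA raised RBL1 by 0.26 ± 0.06 (adjusted p = 0.0104) and RBL2 by 0.28 ± 0.07 (adjusted p = 0.0225) and lowered PLK1 by −0.16 ± 0.05 (adjusted p = 0.0466), at a background of 12.3%. Without the array these 3 genes were called in the same directions, and NDC80, NUSAP1 and ANLN were called lower too, at a background of 12.4%. The interaction of both knockdowns was called for 0 members and 0.00% of all genes. At an unadjusted p under 0.05 it passed for 2 members, 1 in each direction, and 13.1% of all genes, so a difference between the LSD1 effects with and without UBE4B shRNA was not shown for any member.

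The cyclins, CDK1 and the CDC25 phosphatases, which form and activate the kinase that starts mitosis, moved little. CDK1, the mitotic cyclin-dependent kinase, had 9.44, 9.35 and 9.57 in the double knockdown, 9.67, 9.68 and 9.64 in the UBE4B knockdown, 9.53, 9.59 and 9.57 with LSD1 knockdown and 9.64, 9.23 and 9.84 in the control. Its control arrays spanned the values of all other groups, and the change in the double knockdown was −0.11 ± 0.12 with all arrays (adjusted p = 0.661) and −0.28 ± 0.08 without replicate 2 (adjusted p = 0.0428). CCNB1, cyclin B1, had 10.22, 10.13 and 10.22 in the double knockdown, 10.42, 10.28 and 10.24 in the UBE4B knockdown, 10.33, 10.26 and 10.25 with LSD1 knockdown and 10.36, 9.91 and 10.23 in the control, and the groups overlapped with the control in every knockdown. CCNA2 (cyclin A2), CCNB2 (cyclin B2) and the phosphatases CDC25A, CDC25B and CDC25C changed by −0.11 to 0.10 against the control with all arrays, and none passed the test with or without the array. All 7 genes of this role were below 0 in the double against the UBE4B knockdown, with a median of −0.10.

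Among the mitotic kinases, AURKB and PLK1 behaved unlike most of the set in that replicate 2 of the control lay close to its partners. AURKB, the kinase of the chromosomal passenger complex, had 10.68, 10.78 and 10.65 in the double knockdown, 10.64, 10.64 and 10.59 in the UBE4B knockdown, 10.74, 10.67 and 10.62 with LSD1 knockdown and 10.81, 10.86 and 10.85 in the control. All 9 knockdown arrays were below the 3 control arrays. The change was −0.22 ± 0.06 in the UBE4B knockdown (adjusted p = 0.0316, and 0.0651 without replicate 2 of the control), −0.14 ± 0.06 in the double knockdown (adjusted p = 0.199) and −0.17 ± 0.06 in the LSD1 knockdown (adjusted p = 0.225). PLK1, a kinase of centrosome maturation and mitotic entry, had 11.56, 11.37 and 11.51 in the double knockdown, 11.58, 11.48 and 11.42 in the UBE4B knockdown, 11.60, 11.59 and 11.62 with LSD1 knockdown and 11.75, 11.65 and 11.66 in the control. Again every knockdown array was below every control array, by a log2 change of −0.21 ± 0.07 in the double knockdown (adjusted p = 0.0844) and −0.19 ± 0.07 in the UBE4B knockdown (adjusted p = 0.087). PLK4 (centriole duplication), AURKA (centrosome and spindle), NEK2 (centrosome separation) and MELK changed by −0.10 to 0.15 against the control with all arrays, and none was called in any comparison.

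All 6 genes of the spindle checkpoint and of anaphase promotion were higher in the UBE4B knockdown than in the LSD1 knockdown. Their median difference was 0.09. The checkpoint holds anaphase until chromosomes are attached. TTK, the kinase MPS1 at the top of the checkpoint, had 9.96, 9.85 and 10.05 in the double knockdown, 10.15, 10.21 and 10.10 in the UBE4B knockdown, 9.85, 9.97 and 9.92 with LSD1 knockdown and 10.11, 9.43 and 10.01 in the control. The UBE4B knockdown arrays were above all double and LSD1 knockdown arrays. The difference between the UBE4B and LSD1 knockdowns was 0.24 ± 0.14 with all arrays (adjusted p = 0.357) and 0.24 ± 0.07 without replicate 2 of the control (adjusted p = 0.0443), where only the pooled spread changed. SGO1, shugoshin, which protects centromeric cohesion, had 9.83, 9.92 and 9.95 in the double knockdown, 10.08, 10.12 and 9.93 in the UBE4B knockdown, 9.98, 9.94 and 10.04 with LSD1 knockdown and 10.23, 9.93 and 10.22 in the control. Every pair of groups overlapped. Its double knockdown was −0.22 ± 0.08 from the control with all arrays (adjusted p = 0.137) and −0.32 ± 0.07 without replicate 2 (adjusted p = 0.014). BUB1, BUB1B, MAD2L1 and CDC20 were not called in any comparison, and MAD2L1 had the lowest change of this role in the double against the UBE4B knockdown, −0.24 ± 0.10 (adjusted p = 0.341).

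The kinetochore genes NUF2 and NDC80 encode partners in the complex that couples kinetochores to microtubules. NUF2 had 10.02, 10.07 and 10.21 in the double knockdown, 10.38, 10.28 and 10.32 in the UBE4B knockdown, 9.84, 9.93 and 9.99 with LSD1 knockdown and 10.37, 10.06 and 10.45 in the control. All LSD1 knockdown arrays were below all control and all UBE4B knockdown arrays. NUF2 was 0.41 ± 0.09 higher in the UBE4B than in the LSD1 knockdown (adjusted p = 0.0226). The LSD1 knockdown was −0.37 ± 0.09 from the control with all arrays (adjusted p = 0.0831). Without replicate 2 it was −0.49 ± 0.07 (adjusted p = 0.0125), which is 0.71 times the level of the remaining control arrays. NDC80 had 8.82, 8.89 and 8.93 in the double knockdown, 9.01, 9.04 and 8.97 in the UBE4B knockdown, 8.93, 8.97 and 8.89 with LSD1 knockdown and 9.29, 8.77 and 9.23 in the control. All 9 knockdown arrays were below control replicates 1 and 3 and above control replicate 2. Without that replicate NDC80 was called lower in all 3 knockdowns, by −0.38 ± 0.06 in the double (adjusted p = 0.00261), −0.25 ± 0.06 in the UBE4B (adjusted p = 0.027) and −0.33 ± 0.06 in the LSD1 knockdown (adjusted p = 0.027), and with it in none.

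CENPE, a kinesin that moves chromosomes to the spindle equator, had 10.06, 9.95 and 10.10 in the double knockdown, 10.16, 10.29 and 10.14 in the UBE4B knockdown, 9.94, 9.96 and 9.95 with LSD1 knockdown and 9.94, 9.58 and 10.07 in the control. It was highest in the UBE4B knockdown, where all 3 arrays were above all other arrays. The difference from the control was 0.33 ± 0.10 with all arrays (adjusted p = 0.0551) and 0.19 ± 0.07 without replicate 2 (adjusted p = 0.135). That from the LSD1 knockdown was not called with all arrays. Without replicate 2 of the control, where only the pooled spread changed, it was 0.25 ± 0.06 (adjusted p = 0.032). CENPF, a kinetochore and nuclear matrix protein, and BIRC5, survivin of the chromosomal passenger complex, were not called. BIRC5 has 2 clusters with 1 symbol, of which the brighter was used.

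HMMR had the widest range of any member. It encodes a microtubule-binding protein of the spindle and centrosome that is also a hyaluronan receptor. HMMR had 8.83, 8.70 and 8.92 in the double knockdown, 9.31, 9.15 and 9.16 in the UBE4B knockdown, 8.60, 8.68 and 8.59 with LSD1 knockdown and 9.28, 8.49 and 9.26 in the control. Both groups with LSD1 shRNA were below all UBE4B knockdown arrays and below control replicates 1 and 3, and control replicate 2 was the lowest array of all. The LSD1 knockdown was −0.39 ± 0.16 from the control with all arrays (adjusted p = 0.308). Without replicate 2 it was −0.65 ± 0.08 (adjusted p = 0.00308), or 0.64 times the level of the remaining control arrays. The double knockdown was −0.19 ± 0.16 with all arrays (adjusted p = 0.558) and −0.46 ± 0.08 without replicate 2 (adjusted p = 0.00378). In the comparisons that use no control array for their means, the double was −0.39 below the UBE4B knockdown (adjusted p = 0.327 with all arrays and 0.0258 without control replicate 2) and the UBE4B was 0.58 above the LSD1 knockdown (adjusted p = 0.0512 and 0.000661). HMMR was the 1 member called in the double against the UBE4B knockdown without that array, where 0.733% of all genes were.

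Of the other spindle genes, ASPM, a spindle pole protein, had 10.63, 10.66 and 10.61 in the double knockdown, 10.84, 10.85 and 10.84 in the UBE4B knockdown, 10.57, 10.63 and 10.68 with LSD1 knockdown and 10.75, 10.60 and 10.66 in the control. All UBE4B knockdown arrays were above all others, and the difference from the LSD1 knockdown was 0.22 ± 0.06 (adjusted p = 0.047). NUSAP1, which bundles spindle microtubules, had 10.44, 10.46 and 10.68 in the double knockdown, 10.74, 10.73 and 10.71 in the UBE4B knockdown, 10.71, 10.77 and 10.70 with LSD1 knockdown and 10.84, 10.53 and 10.98 in the control. All double knockdown arrays were below all UBE4B and LSD1 knockdown arrays, and control replicate 2 lay among them. The change from the control was −0.26 ± 0.10 with all arrays (adjusted p = 0.146) and −0.38 ± 0.08 without it (adjusted p = 0.011). KIF11, the motor that separates spindle poles, had the highest LSD1 knockdown change of the set with all arrays, 0.15 ± 0.09 (adjusted p = 0.549). Its values were 10.49, 10.48 and 10.61 in the double knockdown, 10.59, 10.80 and 10.63 in the UBE4B knockdown, 10.63, 10.70 and 10.65 with LSD1 knockdown and 10.64, 10.28 and 10.63 in the control. Replicate 2 of the control differed by −0.36 from the mean of the other control arrays, which lay close to the LSD1 knockdown arrays. The rest of this role, the kinesins KIF20A, KIF23 and KIF2C, the spindle assembly factor TPX2, the midzone protein PRC1 and DLGAP5, was not called and changed by −0.08 to 0.20 against the control. All 10 genes of this role were below 0 in the double against the UBE4B knockdown, with a median of −0.14.

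**Figure D4:**
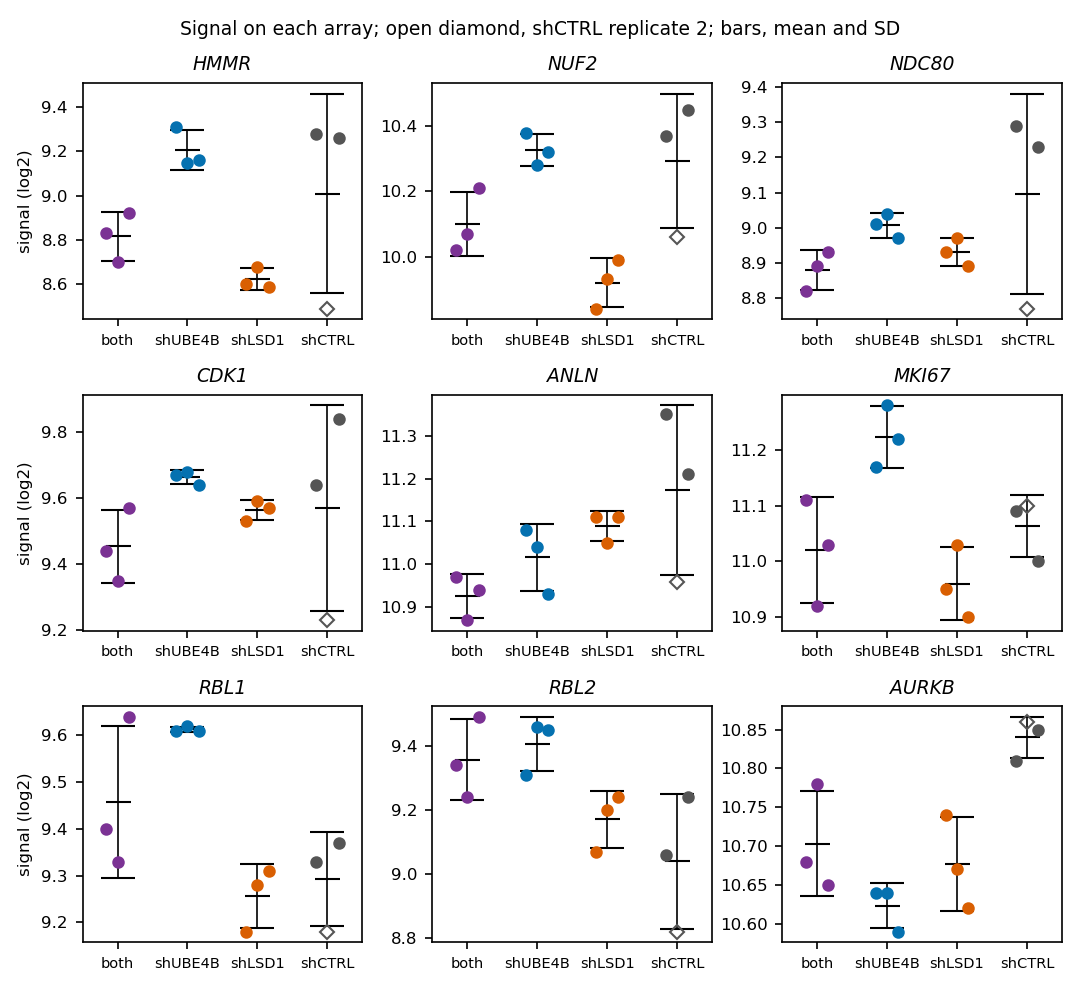
Log2 signal of 9 mitotic genes on each array in the double (both), UBE4B and LSD1 knockdowns and the control, with the mean and SD of each group (n = 3); the open diamond is replicate 2 of the control. That replicate is the lowest array in HMMR, NDC80, CDK1 and RBL2 and lies with its partners in MKI67 and AURKB.

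Of the cytokinesis and chromosome structure genes, ANLN, which organizes the contractile ring, had 10.97, 10.87 and 10.94 in the double knockdown, 11.08, 11.04 and 10.93 in the UBE4B knockdown, 11.11, 11.05 and 11.11 with LSD1 knockdown and 11.35, 10.96 and 11.21 in the control. Every knockdown array was below control replicates 1 and 3. Without replicate 2 the change was −0.36 ± 0.07 in the double knockdown (adjusted p = 0.00772) and −0.26 ± 0.07 in the UBE4B knockdown (adjusted p = 0.0392), and with all arrays it was −0.25 ± 0.09 (adjusted p = 0.106) and −0.16 ± 0.09 (adjusted p = 0.264). ECT2, which activates RHOA at the cleavage plane, had 10.15, 10.15 and 10.27 in the double knockdown, 10.34, 10.42 and 10.37 in the UBE4B knockdown, 10.29, 10.27 and 10.32 with LSD1 knockdown and 10.46, 10.10 and 10.51 in the control, a change in the double knockdown of −0.16 ± 0.09 (adjusted p = 0.343), or −0.29 ± 0.06 without replicate 2 (adjusted p = 0.0117). MKI67, the Ki-67 protein of proliferating cells that coats mitotic chromosomes, had 11.11, 10.92 and 11.03 in the double knockdown, 11.17, 11.28 and 11.22 in the UBE4B knockdown, 10.95, 11.03 and 10.90 with LSD1 knockdown and 11.09, 11.10 and 11.00 in the control. The UBE4B knockdown was above every other array, by 0.26 ± 0.07 over the LSD1 knockdown (adjusted p = 0.0381) and by 0.16 ± 0.07 over the control (adjusted p = 0.141). TOP2A, the topoisomerase that decatenates sister chromatids, was not called.

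Among the members that form DREAM or act against it were the pocket protein genes, whose signal was higher with UBE4B shRNA. RBL1, the pocket protein p107, had 9.40, 9.33 and 9.64 in the double knockdown, 9.61, 9.62 and 9.61 in the UBE4B knockdown, 9.18, 9.28 and 9.31 with LSD1 knockdown and 9.33, 9.18 and 9.37 in the control. The UBE4B knockdown arrays were above all LSD1 knockdown and control arrays, by 0.36 ± 0.08 (adjusted p = 0.0245) and 0.32 ± 0.08 (adjusted p = 0.0271, and 0.0886 without replicate 2 of the control). RBL2, the pocket protein p130 of quiescent cells, had 9.34, 9.24 and 9.49 in the double knockdown, 9.31, 9.46 and 9.45 in the UBE4B knockdown, 9.07, 9.20 and 9.24 with LSD1 knockdown and 9.06, 8.82 and 9.24 in the control. All UBE4B knockdown arrays were above all LSD1 knockdown and control arrays. The change was 0.37 ± 0.10 in the UBE4B knockdown (adjusted p = 0.0372, and 0.119 without replicate 2), and 0.32 ± 0.10 in the double knockdown (adjusted p = 0.0738, and 0.187 without it).

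FOXM1, the activator of late cell cycle genes, had 11.10, 11.06 and 11.04 in the double knockdown, 11.20, 11.09 and 11.15 in the UBE4B knockdown, 11.14, 11.05 and 11.00 with LSD1 knockdown and 11.30, 11.27 and 11.23 in the control. Its 3 control arrays agreed and lay above all 9 knockdown arrays, but the changes of −0.20 ± 0.06 in the double (adjusted p = 0.0606), −0.12 ± 0.06 in the UBE4B (adjusted p = 0.21) and −0.20 ± 0.06 in the LSD1 knockdown (adjusted p = 0.133) did not pass. MYBL2, B-MYB, was the brightest member and the steadiest, with 11.73, 11.79 and 11.84 in the double knockdown, 11.72, 11.74 and 11.76 in the UBE4B knockdown, 11.72, 11.73 and 11.74 with LSD1 knockdown and 11.69, 11.72 and 11.72 in the control. The MuvB subunit LIN9 had 9.35, 9.14 and 9.31 in the double knockdown, 9.46, 9.41 and 9.38 in the UBE4B knockdown, 9.35, 9.26 and 9.24 with LSD1 knockdown and 9.31, 8.95 and 9.36 in the control. The DNA-binding subunit LIN54 had 8.62, 8.60 and 8.68 in the double knockdown, 8.93, 8.83 and 8.82 in the UBE4B knockdown, 8.73, 8.72 and 8.66 with LSD1 knockdown and 8.87, 8.45 and 8.76 in the control. For both MuvB genes the UBE4B knockdown was above all double and LSD1 knockdown arrays, and no comparison between groups passed the test.

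Upstream of the set, CDKN1A, which encodes p21, had 8.47, 8.47 and 8.74 in the double knockdown, 8.54, 8.47 and 8.51 in the UBE4B knockdown, 8.40, 8.33 and 8.46 with LSD1 knockdown and 8.25, 8.50 and 8.58 in the control. The control arrays overlapped with every knockdown, while the LSD1 knockdown arrays were below all arrays of the other knockdowns. The changes from the control were 0.12 ± 0.09 in the double (adjusted p = 0.536), 0.06 ± 0.09 in the UBE4B (adjusted p = 0.687) and −0.05 ± 0.09 in the LSD1 knockdown (adjusted p = 0.88). Whether p21 acted on the set was not tested, and the set is described by its genes. E2F4, the repressor E2F of DREAM, had 10.42, 10.32 and 10.25 in the double knockdown, 10.36, 10.31 and 10.31 in the UBE4B knockdown, 10.61, 10.58 and 10.52 with LSD1 knockdown and 10.59, 10.64 and 10.52 in the control. It was lower in both groups with UBE4B shRNA, by −0.25 ± 0.06 in the double (adjusted p = 0.0261) and −0.26 ± 0.06 in the UBE4B knockdown (adjusted p = 0.021), and both missed the threshold without replicate 2 of the control (adjusted p = 0.0544 and 0.0562).

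Of 23 other DREAM subunits and regulators, 3 were called higher and 3 lower in the double knockdown and 3 higher and 3 lower in the UBE4B knockdown, and 1 higher and 0 lower in the LSD1 knockdown, where 7.56%, 10.1% and 0.820% of all genes were called. E2F7, an atypical repressor E2F, was higher by 0.48 ± 0.06 in the double (adjusted p = 0.000227) and 0.35 ± 0.06 in the UBE4B knockdown (adjusted p = 0.00232). CCND1, cyclin D1, whose kinases phosphorylate pocket proteins, was lower by −0.46 ± 0.09 (adjusted p = 0.00567) and −0.66 ± 0.09 (adjusted p = 0.000799). MDM2, a ubiquitin ligase, was 0.50 ± 0.09 higher in the UBE4B knockdown (adjusted p = 0.00407), and E2F8 was lower by −0.39 ± 0.08 in the double knockdown (adjusted p = 0.0102). CDK6, a kinase partner of cyclin D, was higher by 0.42 ± 0.09 in the LSD1 knockdown (adjusted p = 0.0417, and 0.0807 without replicate 2 of the control). Both MDM2 and CDK6 were also called higher in the double knockdown, by 0.39 ± 0.09 (adjusted p = 0.0149) and 0.39 ± 0.09 (adjusted p = 0.0131). These double knockdown values of MDM2 and CDK6 are for all arrays only. The called E2F7 and CCND1 changes, and the MDM2 change in the UBE4B knockdown, kept their calls without replicate 2 of the control.

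Other late cell cycle genes were counted in the same way. Of 66 further G2 and M phase genes, 9 were called higher and 1 lower in the UBE4B against the LSD1 knockdown (5.46% of all genes called, 45 above 0, median 0.07), and 0 were called in the double against the UBE4B knockdown (0.147% of all genes called, 56 below 0, median −0.09). Against the control, 0 were called higher and 3 lower in the double knockdown with all arrays, at a background of 7.56%, and 0 higher and 13 lower without replicate 2, at a background of 8.41%. DEPDC1, a regulator of mitotic progression, was lowest in the double knockdown, by −0.64 ± 0.12 (adjusted p = 0.00573), followed by the centromere protein gene CENPL by −0.52 ± 0.13 (adjusted p = 0.0254) and the chromatin protein gene HMGB2 by −0.46 ± 0.10 (adjusted p = 0.0104). HMGB2 was also lower in the UBE4B knockdown, by −0.57 ± 0.10 (adjusted p = 0.0034), where KIF14 rose by 0.39 ± 0.09 (adjusted p = 0.0214, and 0.0559 without replicate 2 of the control) and SGO2 by 0.37 ± 0.07 (adjusted p = 0.00869). In the LSD1 knockdown 0 of the 66 were called with all arrays and 4 lower without replicate 2, at backgrounds of 0.820% and 1.08%. CDKN3, which encodes a phosphatase, was among the 4, with −0.62 ± 0.07 without the array (adjusted p = 0.00406) and −0.40 ± 0.14 with it (adjusted p = 0.21).

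The G1/S genes are targets of E2F in the earlier part of the cycle. Of 54, 0 were called higher and 2 lower in the UBE4B against the LSD1 knockdown, where 5.46% of all genes were called, with 35 below 0 and a median of −0.05. TIMELESS, of the replication fork, rose in all 3 knockdowns, by 0.63 ± 0.07 in the double (adjusted p = 0.000128), 0.60 ± 0.07 in the UBE4B (adjusted p = 0.000294) and 0.36 ± 0.07 in the LSD1 knockdown (adjusted p = 0.0306). E2F2 was lower by −0.45 ± 0.07 in the double (adjusted p = 0.00238) and −0.38 ± 0.07 in the UBE4B knockdown (adjusted p = 0.00674), and the clamp loader subunit gene RFC3 by −0.38 ± 0.06 (adjusted p = 0.0025) and −0.32 ± 0.06 (adjusted p = 0.00828). POLD3, a DNA polymerase delta subunit, rose by 0.34 ± 0.06 in the LSD1 knockdown (adjusted p = 0.0325). POLD3 was also called higher in the double knockdown, by 0.30 ± 0.06 (adjusted p = 0.0121), and in the UBE4B knockdown, by 0.26 ± 0.06 (adjusted p = 0.0215). These double and UBE4B knockdown values of POLD3 are for all arrays only. CCNE1, cyclin E1, rose by 0.34 ± 0.07 in the LSD1 knockdown (adjusted p = 0.0399, and 0.0701 without replicate 2 of the control).

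**Figure D5:**
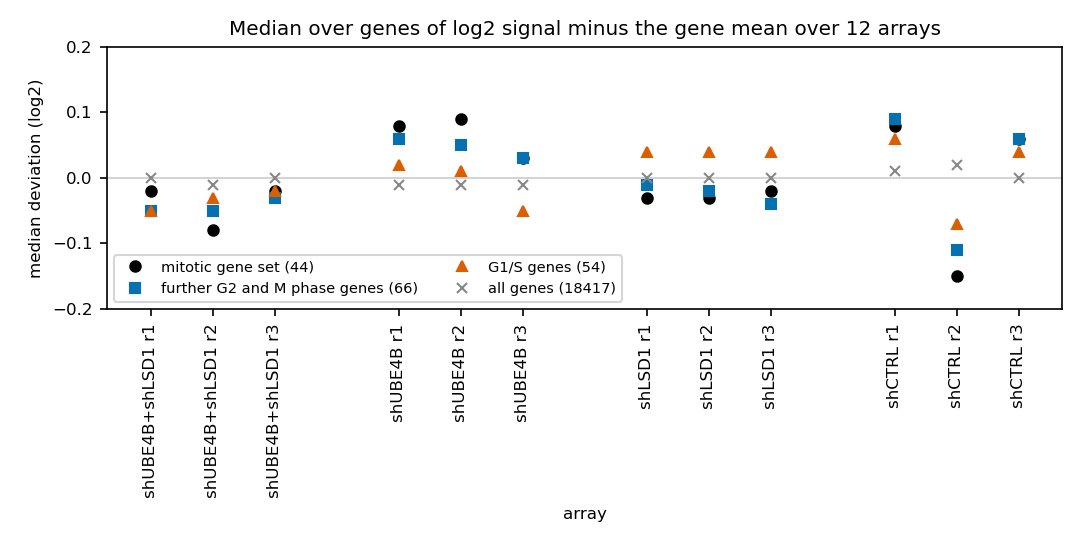
Median over the genes of each list of the log2 signal minus the gene's mean over 12 arrays, by array. The mitotic genes lie at 0.03 to 0.09 on the shUBE4B arrays, at −0.08 to −0.02 on the double knockdown and shLSD1 arrays, and at −0.15 on replicate 2 of shCTRL against 0.08 and 0.06 on the other control arrays.

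The mean correlation between pairs of members was 0.35 over 12 arrays, and 0.00 over all genes. With group means removed it was 0.39 over 12 arrays and 0.12 over the 11 arrays without replicate 2 of the control. DLGAP5, LIN54 and BUB1 followed the mean of the other members most closely (r = 0.97, 0.93 and 0.93 over 12 arrays), and AURKB, BIRC5 and MYBL2 had correlations below 0 with it (r = −0.29, −0.27 and −0.23, and 0.05, 0.28 and −0.43 over 11 arrays). These correlations share the arrays and their normalization and carry no test. Members with CHR letters had a median change of −0.14 in the double against the UBE4B knockdown (28 genes), and those without them −0.07 (11 genes), and in the UBE4B against the LSD1 knockdown the medians were 0.11 and 0.07. Against the control the medians with and without CHR letters were −0.08 and 0.02 in the double, 0.08 and 0.09 in the UBE4B and −0.06 and 0.02 in the LSD1 knockdown with all arrays. Without replicate 2 they were −0.15 and −0.07, −0.03 and 0.04, and −0.12 and −0.03 in the same knockdowns. These medians are a description with no test.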

How the data were processed

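The authors deposited log2 signals of 12 Affymetrix Human Gene 1.0 ST arrays, made with Partek and RMA per the labels, with hg19 as the named build, and versions are not given in the sources used here. RMA subtracts background, quantile-normalizes and summarises probes on a log2 scale, so a shift shared by all genes would be removed. Of 33297 rows, 19460 carried 1 symbol, and the brightest row per gene gave 18417 genes. Depth has no equivalent here, and 3 arrays per group limit the precision.

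Groups were compared with limma 3.58.1 (R 4.3.3) on 4 group means, leaving 8 residual degrees of freedom, and p values were adjusted over all genes by the Benjamini-Hochberg method, after the script was tested on simulated data. Errors are SE of the fit. The members and lists were chosen with earlier results of these data known. Per-array values are given for members called with or without replicate 2 of the control, the 2 highest and 2 lowest changes per knockdown, and DREAM factors chosen by name, and from each other list up to 3 called genes with the largest changes per knockdown. The mean shRNA effects and overlap counts were added after seeing the data. Alternatives were each array left out, the replicate number as a block, other empirical Bayes settings, array weights, a fit on 6 arrays, further quantile or median scaling, the mean of all rows per gene, leaving out the 40% dimmest genes and the methods' t-test. Promoter windows are from RefSeq. Python 3.11.15 drew the figures.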

Additional observations from a re-analysis of the deposited data

Results flagged for a closer look

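AURKB differed in direction between the LSD1 shRNA effects with and without UBE4B shRNA. All 3 double knockdown arrays were above all 3 UBE4B knockdown arrays, while all 3 LSD1 knockdown arrays were below all 3 control arrays. The difference between these effects was 0.25 ± 0.08 on the log2 scale (SE) in the limma fit, and did not pass after adjustment over all genes (adjusted p = 0.266). Groups of 3 arrays are too small for the check of single outlying arrays.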

How the results depend on the processing

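Counts of called members changed with several settings. In the double knockdown against the control (0 called) the count was 2 with the replicate block, 4 with trend and robust empirical Bayes, 2 with array weights, 3 without the 40% dimmest genes, 10 without replicate 2 of the control with replicate block, and 0 to 8 when 1 array was left out. In the UBE4B knockdown (3 called) it was 7 with trend and robust settings, 6 without the dimmest genes, 0 with limma on 6 arrays, 0 with the methods' t-test after Benjamini-Hochberg adjustment, and 0 to 3 when 1 array was left out. Its median change of 0.09 was 0.01 without replicate 2 of the control, with or without the block, and 0.01 to 0.13 over all arrays left out in turn. In the LSD1 knockdown (0 called) it was 2 with trend and robust settings, 2 with array weights, 1 with further quantile normalization, 1 without the dimmest genes, 3 without replicate 2 of the control with replicate block, and 0 to 3 when 1 array was left out. In the double against the UBE4B knockdown (0 called) it was 1 without that replicate with the block, and 0 to 1 when 1 array was left out. In the UBE4B against the LSD1 knockdown (4 called) it was 7 without that replicate with the block, and 0 to 7 when 1 array was left out. The cause was not tested.

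CDK1 in the double knockdown was 0.02 without replicate 3 of the control (adjusted p = 0.927), against −0.28 at the other end when replicate 2 was left out, and NDC80 in the UBE4B knockdown was 0.01 without replicate 1 of the control (adjusted p = 0.962), against −0.25 without replicate 2, so both changed direction from that with all arrays. Over 24 results for named genes, 406 alternatives kept direction and side of the threshold, 55 lost the call and 49 gained it. Over all genes, leaving out replicate 2 of the control gave 135 calls in place of 27 in the double against the UBE4B knockdown, 1662 in place of 1006 in the UBE4B against the LSD1 knockdown, and 1226 in place of 1854 in the UBE4B knockdown against the control. The labels do not say that a replicate number marks a shared batch. Deviations of same-numbered arrays correlated by −0.0801 to 0.328, over 0.1 in 10 of 18 pairs, and those of other arrays by −0.344 to 0.248, over 0.1 in 2 of 36 pairs. Of 12 arrays 8 correlated best with an array of their own number, a hint from the data and not the design. With all 12 arrays the replicate block moved the count of called members in the double knockdown against the control (2 in place of 0) and in no other comparison.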
